A study of Mus musculus with 8 samples.

Results

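The endothelium of brain vessels is supplied with membrane carriers that move nutrients from blood to brain, and 8 of their genes are described here: Slc2a1, Slc7a5, Slc3a2, Slc16a1, Slc7a1, Slc1a1, Slc38a3 and Slc6a6. They were taken by gene symbol, and each of the 8 matched 1 of the 31053 genes in the deposited count tables. Cells of mouse cortical plate, perfused and dissociated with enzymes at 8 weeks of age, had been sequenced on the 10x Genomics 3′ droplet platform in 4 groups. These were Lama4-/- mice, which lack the gene for the laminin alpha 4 chain, wild-type (WT) mice run as their controls, Tek-Cre:Lama5-/- mice, and a separate WT group run as controls for the latter. In Tek-Cre:Lama5-/- mice the gene for laminin alpha 5 is removed by a Cre recombinase under the Tek promoter, which is active in endothelial cells and in part of the blood lineage. The brains of 3 mice were pooled per group and 2 samples were deposited per group, so p-values below measure only the spread between samples, which may be technical, and not that between mice. The 2 Lama4-/- samples held identical counts and were used as 1 library, which left 7 libraries and no test for that knockout.

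Because the endothelial cells of the brain are sealed by tight junctions, small polar nutrients cross them through carriers of the solute carrier (SLC) families. Slc2a1 encodes GLUT1, the glucose carrier of the blood-brain barrier. Slc16a1 encodes MCT1, which moves lactate and ketone bodies together with a proton. Slc7a5 encodes LAT1, an exchanger of large neutral amino acids such as leucine, and works only when bound to the heavy chain CD98hc encoded by Slc3a2. Slc7a1 encodes CAT1 for the cationic amino acids arginine and lysine, Slc1a1 encodes EAAT3 for glutamate and aspartate, Slc38a3 encodes SNAT3 for glutamine, and Slc6a6 encodes the taurine carrier TauT. Carriers of brain endothelium are known to be unevenly spread along the vessel tree from arteries through capillaries to veins.

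All 8 are protein-coding genes on 7 mouse chromosomes of the GRCm38 build in the GENCODE M21 annotation. Slc2a1 lies on the plus strand at chr4:119108711-119137983, Slc16a1 on the plus strand at chr3:104638668-104658462, and Slc6a6 on the plus strand at chr6:91684053-91759066. Slc7a5 (minus strand, chr8:121881150-121907694), Slc7a1 (minus strand, chr5:148327410-148399904) and Slc38a3 (minus strand, chr9:107650634-107669530) are transcribed in the opposite direction. Chromosome 19 carries both Slc3a2 (minus strand, chr19:8706882-8723369) and Slc1a1 (plus strand, chr19:28835049-28913960).

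Below are the 150 bases just before the annotated starts of Slc2a1 and Slc1a1, which are shown because both transcripts were lower in Tek-Cre:Lama5-/- endothelium (values below). They come from the RefSeq promoter table for GRCm38.p6, are written 5′ to 3′ on the gene's strand, and capitals mark the GC box GGGCGG or its reverse complement.
Slc2a1, chr4:119108561-119108710, plus strand: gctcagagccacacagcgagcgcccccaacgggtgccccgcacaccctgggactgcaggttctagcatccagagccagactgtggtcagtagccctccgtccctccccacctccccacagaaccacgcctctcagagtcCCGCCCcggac
Slc1a1, chr19:28834899-28835048, plus strand: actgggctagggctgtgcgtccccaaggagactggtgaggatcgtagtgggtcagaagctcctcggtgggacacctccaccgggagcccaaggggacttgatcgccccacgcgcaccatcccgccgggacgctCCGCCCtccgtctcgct
Each stretch held 1 GC box and was 68% G or C. The table held 6 windows of 300 bases for 5 of the 8 genes. It had none for Slc7a5, Slc38a3 or Slc6a6, which were therefore not searched. Of the 6 windows, 5 had a GC box, which 35.7% of all 32851 windows had. The letters TGATGNAA, the core of the element bound by the amino acid response factor ATF4, were searched on both strands and stood in 0 of the 6 windows and in 3.97% of all windows. A match or its absence describes these letters in these windows only, and with so few windows 0 matches do not set these genes apart.

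After filtering, 47239 cells remained, of which 26252 were endothelial-like, with 2194 to 4987 in each library. The Lama4 experiment had fewer and deeper cells: median UMIs (unique molecules counted) per kept cell were 6543 and 6425 in its WT, 5268 in Lama4-/-, 3780 and 3560 in the WT of the Lama5 experiment, and 3147 and 2904 in Tek-Cre:Lama5-/-. In endothelial-like cells Lama4 stood at 45.3 and 44.5 CPM (UMIs of the gene per 1e+06 UMIs of the class) in its WT and at 0.0607 in Lama4-/-. Lama5 stood at 42.2 and 42.1 CPM in WT and at 22.3 and 24.0 in Tek-Cre:Lama5-/-, and the labels do not say which part of the gene was removed, so these 3′ tags do not settle how much of it was lost. Endothelial markers fitted the label: Cldn5, a tight junction gene, had a median of 5010 CPM in endothelial-like cells against 56.6 in pericyte-like and 28.8 in microglia-like cells. Its median was 132 CPM in astrocyte-like and 103 in neuroblast-like cells, and neuron-like cells had 772 CPM in their highest library. How much of the transporter levels in these other classes came from endothelial RNA was not tested. Neurons were nearly absent from this cortical material, at 16 to 29 neuron-like cells in each library. Carrier genes were left out of the clustering, so the cell classes and zones were not drawn from the transporters themselves.

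Of the 8 genes, 7 had their highest level in endothelial-like cells among the 10 cell classes with enough cells, and for 6 of them the lowest endothelial library was above the highest library of the next class. Levels across classes are given as CPM over all UMIs of the class, as the lowest, median and highest of the 7 libraries, and no test was made between classes.

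Slc2a1 ran from 2905 to 3856 CPM with a median of 3344 in endothelial-like cells. Ependymal-like cells came next, between 441 and 859 CPM with a median of 613, so the endothelial level was 4.14 to 7.58 times theirs within a library. Astrocyte-like cells followed at a median of 148 CPM, and from there downward, beginning with oligodendrocyte-like cells (103 CPM), the ranges of neighbouring classes overlapped. Slc7a5 was the most restricted of the amino acid carriers relative to the next class. Its endothelial level ran from 468 to 627 CPM with a median of 607, and the next class, neuroblast-like cells, had a median of 46.4 CPM. Within a library the endothelial level was 7.05 to 17.4 times the neuroblast-like one.

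Its heavy chain Slc3a2 had no such restriction. Endothelial-like cells had 525 to 772 CPM with a median of 554, microglia-like cells 341 to 565 CPM with a median of 538, and endothelial-like cells were the higher of the pair in 5 of 7 libraries. Astrocyte-like cells (median 439 CPM) and perivascular macrophage-like cells (430 CPM) were close behind, and even the lowest class, oligodendrocyte-like cells, had 107 CPM. CD98hc also partners other light chains, several of which are used outside the endothelium.

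Slc16a1 ran from 369 to 469 CPM in endothelial-like cells with a median of 406. Ependymal-like cells (157 CPM) and oligodendrocyte-like cells (122 CPM) followed in that order in 7 of 7 libraries, and pericyte-like cells were lowest at 2.72 CPM. MCT1 is a known lactate carrier of oligodendrocytes. Fibroblast-like cells, which were numerous enough in 3 libraries only and so stand outside this order, had 161 to 291 CPM. Slc7a1 ran from 416 to 452 CPM in endothelial-like cells, with a highest library close to the lowest, against a median of 49.4 CPM in neuroblast-like cells. Slc1a1 ran from 161 to 207 CPM in endothelial-like cells, and neuron-like cells were second at a median of 44.4 CPM over 5 libraries, above every class below them. EAAT3 is best known as a neuronal glutamate carrier.

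Slc38a3 was the exception, as its highest class was not endothelial. Astrocyte-like cells had 141 to 249 CPM with a median of 201, ependymal-like cells 147 to 214 CPM with a median of 183, and endothelial-like cells 143 to 167 CPM with a median of 156. These 3 ranges overlapped, and the fourth class, neuron-like cells, had a median of 7.64 CPM. SNAT3 is a known glutamine carrier of astrocytes. Slc6a6 was highest in endothelial-like cells at 1283 to 1785 CPM with a median of 1376, and perivascular macrophage-like (222 CPM), microglia-like (222 CPM) and oligodendrocyte-like cells (187 CPM) followed without separation.

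**Figure D1:**
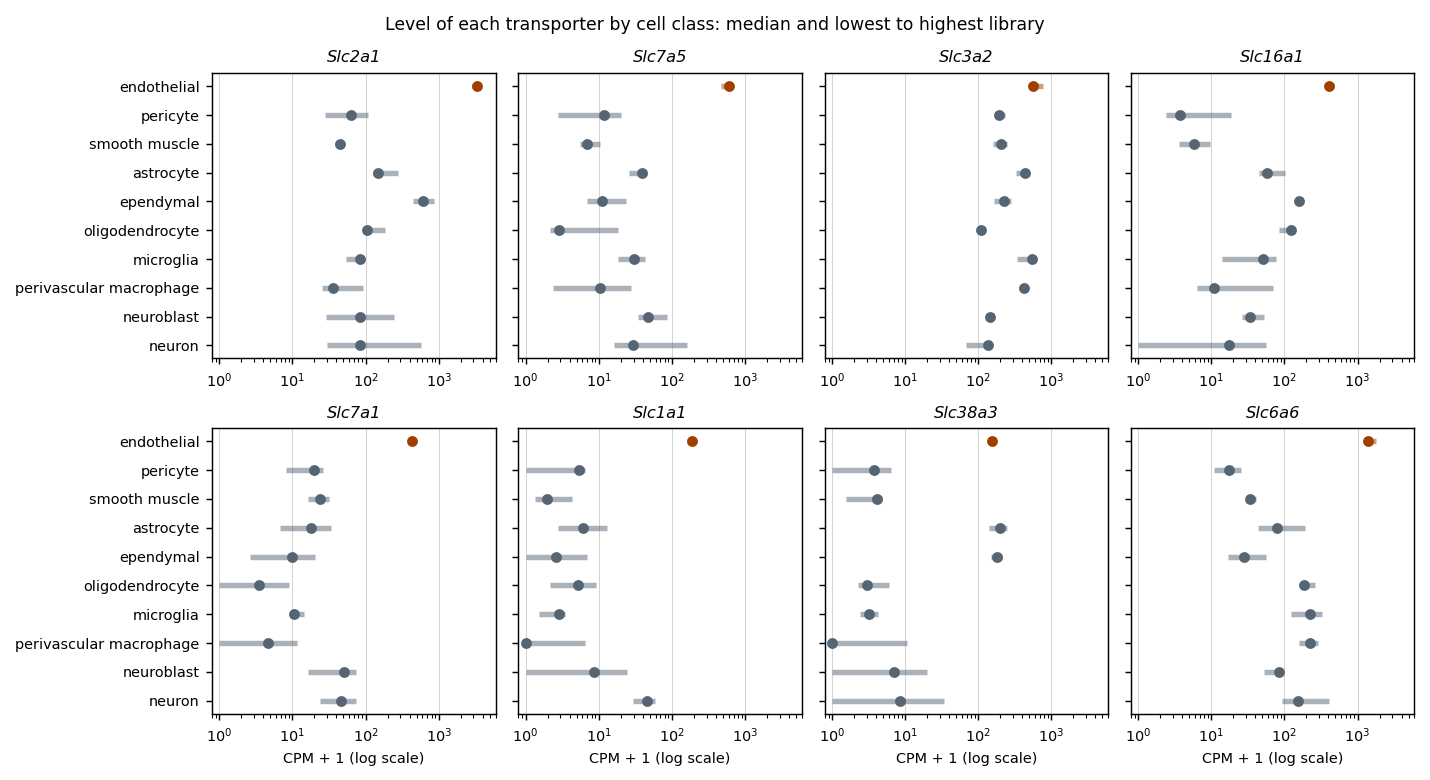
Level of each of the 8 transporters in 10 cell classes, in CPM plus 1 on a log axis; the dot is the median of the libraries and the bar spans the lowest to the highest library. Endothelial-like cells, in orange, are apart from every other class for Slc2a1, Slc7a5, Slc16a1, Slc7a1, Slc1a1 and Slc6a6, but not for Slc3a2 or Slc38a3.

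By the likeness of their levels over 12 cell classes, among 12134 genes that reached 20 CPM in at least 1 class, the genes nearest to Slc7a5 were Gata2, Ptprb and Fgd5, with Pearson r of 0.940, 0.927 and 0.923. Nearest to Slc2a1 were Nxpe4 (r 0.951), Polk (0.950) and Pomc (0.939), and nearest to Slc38a3 were Frem2 (0.924), Maob (0.916) and Ankrd29 (0.905). Slc3a2 was nearest to Swap70 (r 0.975), Slc1a1 to Ptprr (0.945), Slc7a1 to Pak1ip1 (0.911), Slc6a6 to Afap1l1 (0.909) and Slc16a1 to Keap1 (0.842). These correlations describe 12 points that share libraries, several of them resting on few cells.

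Endothelial-like cells were split into 4 zones from marker genes of large arteries, small arteries, capillaries and veins, such as the arterial Gkn3, capillary Mfsd2a and venous Nr2f2. Capillary cells made up 59.3% to 68.2% of endothelial-like cells in each library, small-artery cells 16.2% to 18.2%, venous cells 9.40% to 13.8% and large-artery cells 1.19% to 2.99%. The borders are soft. A score of the same markers per cell gave the same zone in 68.3% of the zoned cells, and the capillary markers Car4 (median 779 CPM in capillary and 808 in venous cells) and Itm2a (3690 and 4710) did not separate capillaries from veins. Zones were found in the same cells in which the genes were measured, so their levels are described without a test. The borders also shifted when 1 carrier gene outside the 8 was kept in the clustering, an alternative chosen after seeing the data, and results that changed with it are given beside them.

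Of the 8 genes, 6 had their highest median in capillary cells. Slc7a5, Slc3a2, Slc16a1, Slc7a1 and Slc38a3 were high in capillaries and veins and low in arteries. Slc1a1 was high in capillaries only, and Slc2a1 and Slc6a6 were not highest in capillaries. With 1 carrier gene kept in the clustering 4 genes were highest in capillaries, as the medians of Slc16a1 and Slc7a1 were then highest in veins.

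Slc7a5 had 608 to 889 CPM in capillary cells with a median of 779. Venous cells had 521 to 702 CPM (median 662) and were below capillary cells in 7 of 7 libraries, at 0.691 to 0.906 of the capillary level. The drop came in arteries: small-artery cells had 117 to 196 CPM (median 171), or 0.191 to 0.278 of the capillary level, and large-artery cells had 7.83 to 32.9 CPM, from 53 UMIs over all libraries. Neither arterial range overlapped that of capillaries or veins. After thinning each cell to 2000 UMIs, a Slc7a5 UMI was found in 64.2% to 78.0% of capillary cells and in 20.2% to 30.8% of small-artery cells, against 0% to 3.70% of pericyte-like cells, which should lack the gene. Without thinning the shares were 68.0% to 94.0%, 34.0% to 57.8% and 0.461% to 4.57%. Median depths before thinning were 2339 to 5419 UMIs in capillary, 3990.5 to 9028 in small-artery and 1907.5 to 2806.5 in pericyte-like cells.

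Slc16a1 fell along the tree in the same way. It had 452 to 646 CPM in capillary cells (median 533), 417 to 539 in venous cells (median 489), 81.2 to 114 in small-artery cells and 4.31 to 43.5 in large-artery cells. Venous cells were below capillary cells in 5 of 7 libraries only, so those zones were not separated. Small-artery cells stood at 0.129 to 0.241 of the capillary level in 7 of 7 libraries. Slc7a1 had a median of 543 CPM in capillary and 518 in venous cells with overlapping ranges, 204 in small-artery cells and 74.4 in large-artery cells, and neither arterial range overlapped the other zones.

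Slc38a3 showed medians of 195 CPM in capillary, 176 in venous and 58.1 in small-artery cells. In large-artery cells it had 18 UMIs over all 7 libraries, and in those cells 3 UMIs correspond to 6.16 to 14.5 CPM, so the values there, 0 to 24.2 CPM, are near the limit of detection. Slc3a2 had the shallowest slope of these 5 genes, with medians of 667, 614, 331 and 230 CPM in capillary, venous, small-artery and large-artery cells. Small-artery cells kept 0.384 to 0.537 of the capillary level of Slc3a2. Venous and small-artery ranges did not overlap, while those of small-artery and large-artery cells did.

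Slc1a1 differed from these in veins. Capillary cells had 228 to 332 CPM with a median of 263, and venous cells had only 90.6 to 111 CPM, at 0.293 to 0.460 of the capillary level in 7 of 7 libraries. Small-artery cells had 59.3 to 95.6 CPM, which overlapped the venous range. Large-artery cells had 8 UMIs of Slc1a1 over all libraries, and it was listed at 0 in 2 of them.

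Slc2a1 was lowest where most of the others were highest among the smaller vessels. Venous cells had 3415 to 4190 CPM (median 3888), small-artery cells 3097 to 4039 (median 3600) and capillary cells 2608 to 3721 (median 3038). Within every library capillary cells were below both, with small-artery cells at 1.07 to 1.23 times and venous cells at 1.10 to 1.37 times the capillary level. Venous and small-artery cells overlapped, and large-artery cells were lowest at a median of 1986 CPM. The taurine carrier Slc6a6 ran opposite to the amino acid carriers. Small-artery cells had 1948 to 2405 CPM (median 2110), above every other zone in 7 of 7 libraries and at 1.49 to 1.97 times the capillary level. Large-artery cells followed at a median of 1541 CPM, venous cells at 1333 and capillary cells at 1107, and these 3 zones overlapped. The top zone of both genes moved when zones were drawn from per-cell marker sums, to small-artery cells for Slc2a1 and to large-artery cells for Slc6a6.

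**Figure D2:**
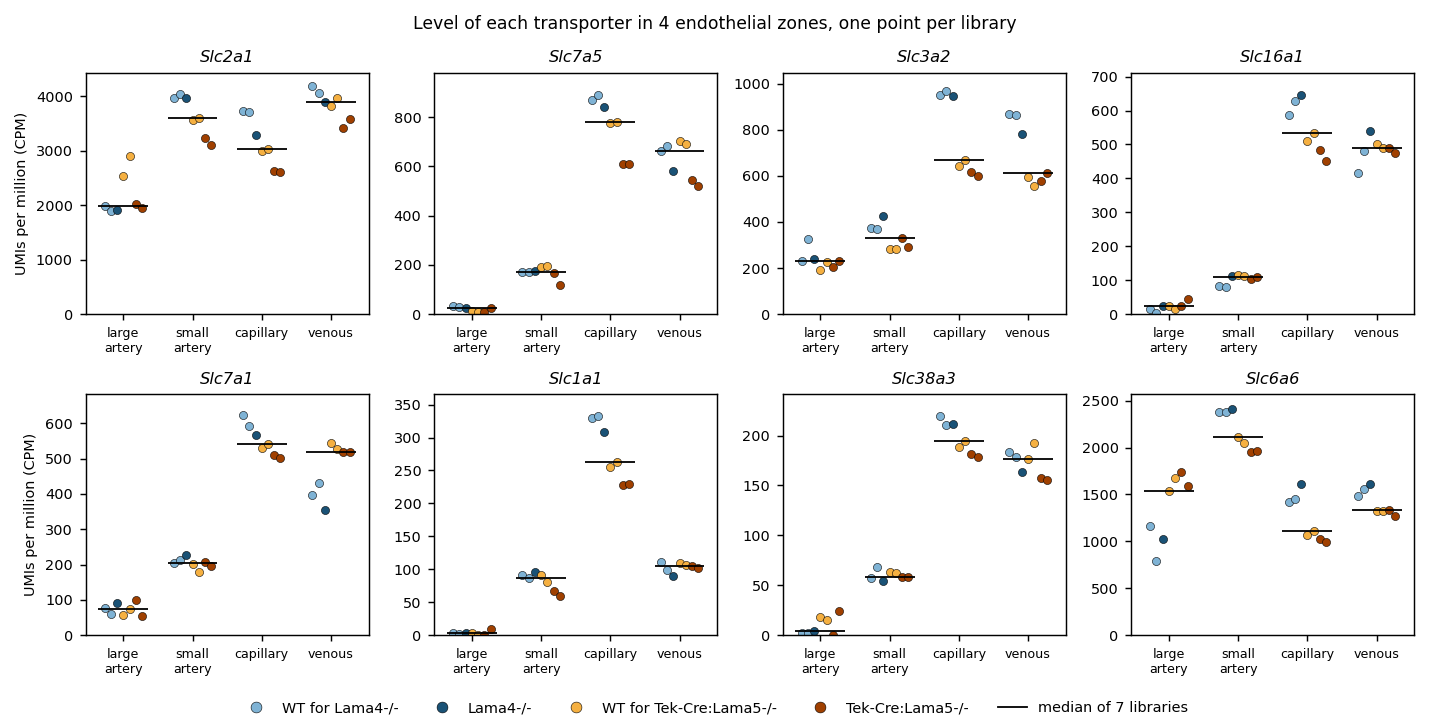
CPM of each transporter in the 4 endothelial zones, 1 point per library coloured by group, with the median of 7 libraries as a line and each axis starting at 0. Slc7a5, Slc16a1, Slc7a1 and Slc38a3 drop in both arterial zones, Slc1a1 also drops in veins, and Slc6a6 is highest in small arteries.

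The 15 named endothelial sub-clusters showed the same patterns in finer steps. Ordered from the most arterial to the most venous by their markers, the median Slc7a5 level was 23.1 CPM in the large-artery sub-cluster, 40.7, 105, 222 and 293 in the 4 small-artery ones, and between 494 and 985 in the 8 capillary ones. The sub-cluster placed with capillaries nearest to the arterial end had 494 CPM. Its leading genes held the arterial Hey1 beside the capillary Cxcl12. It was 1 of 4 border sub-clusters, 3 placed with capillaries and 1 with small arteries, whose best 2 scores over the zone markers and a list of fenestrated vessels lay within 0.25 of each other. Slc16a1 changed later: it was still at 173 CPM in that sub-cluster and at 302 and 144 in the next 2, and reached 541 to 763 CPM in the remaining capillary ones. Slc1a1 peaked at 328 CPM and had come down to 186 CPM in the most venous sub-cluster placed with capillaries, 144 and 88.6 in the venous ones. Slc7a1 peaked, at 729 CPM, in that same sub-cluster next to the veins, a border one with a capillary score of -0.121 and a venous score of -0.178, whose leading genes held the venous Nr2f2 and the capillary Car4. Over the 15 sub-clusters the log levels of Slc7a5 correlated with those of Slc38a3 at r of 0.970, Slc7a1 at 0.956, Slc1a1 at 0.942, Slc3a2 at 0.926 and Slc16a1 at 0.916, with Slc2a1 at 0.261 and with Slc6a6 at -0.671. The sub-clusters share libraries and differ in depth, so these values are a description.

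**Figure D3:**
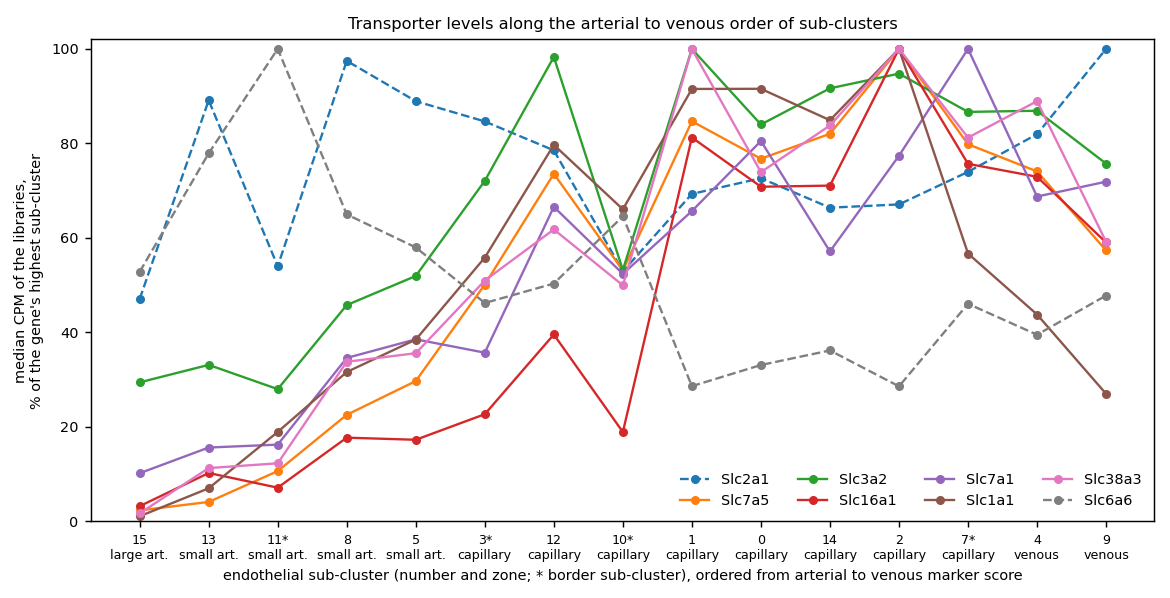
Median CPM of each transporter over the libraries in the 15 named sub-clusters, as a percentage of that gene's highest sub-cluster, ordered from arterial to venous marker score, with an asterisk on the 4 border sub-clusters. The solid lines of 6 carriers rise from the arterial end, Slc1a1 comes down again towards the veins, and the dashed lines of Slc2a1 and Slc6a6 do not follow them.

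Slc7a5 and Slc3a2, whose proteins work as a pair, were compared within cells at 2000 UMIs. In capillary cells both were found together in 43.5% to 63.8% of cells, which was 1.00 to 1.03 times what independence gives. In small-artery cells they met in 10.4% to 19.3% of cells, 1.11 to 1.34 times the product of their shares in every library. The ratio was 1.01 to 1.04 in venous cells and 1.07 to 1.09 over all endothelial-like cells, where zones are mixed. Small-artery sub-clusters also differed in Slc7a5 level, as given above, and the part of such mixing in their ratio was not tested.

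The comparison of Tek-Cre:Lama5-/- with its WT asks whether the carriers change when endothelial laminin alpha 5 is removed. In endothelial-like cells 3 of the 8 genes were lower and none was higher: Slc7a5, Slc1a1 and Slc2a1. The test was edgeR's quasi-likelihood test with Benjamini-Hochberg adjustment over all genes and a threshold of 0.05, which called 19.2% of 13151 genes, and 8.47% as lower. Values in this and the following comparisons are CPM scaled by TMM, a normalisation that assumes most genes are unchanged between libraries.

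Slc7a5, the large neutral amino acid exchanger, had 591 and 603 CPM in the WT libraries and 498 and 483 CPM in Tek-Cre:Lama5-/-. Both knockout libraries lay below both WT libraries. The fold change was -0.28 on the log2 scale (SE 0.02, adjusted p 4.44e-12), so the mean level fell by 17.8%, and it held in 13 of 13 alternative analyses, between -0.36 and -0.26. Slc1a1, the glutamate carrier, had 180 and 182 CPM in WT and 165 and 166 CPM in the knockout, a log2 change of -0.13 (SE 0.03, edgeR adjusted p 0.00101). Its call was lost with DESeq2 (adjusted p 0.0788) and in cells free of other cell types' markers (adjusted p 0.056), while the log2 change lay between -0.21 and -0.12 in 13 alternatives. Slc2a1, the glucose carrier, had 3193 and 3250 CPM in WT and 2987 and 2997 CPM in the knockout. The mean level fell by 7.12% (log2 change -0.11, SE 0.02, edgeR adjusted p 2.38e-05), and the call held in 13 of 13 alternatives.

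The other 5 genes were not called. For the heavy chain CD98hc, the partner of LAT1, Slc3a2 had 528 and 538 CPM in WT and 552 and 542 in the knockout, a log2 change of 0.04 (SE 0.02, edgeR adjusted p 0.267). Slc16a1 had 394 and 410 CPM in WT and 402 and 381 in the knockout, so the groups overlapped. Slc7a1 had 432 and 436 CPM in WT and 445 and 440 in the knockout, and Slc38a3 had 150 and 157 in WT and 149 and 148 in the knockout. Slc6a6 was closest to no change, with 1339 and 1330 CPM in WT, 1337 and 1323 in the knockout, and an approximate 95% interval of -0.0417 to 0.0317 on the log2 scale. When library totals replaced TMM every member shifted down and 6 of 8 were called, all lower. The share of all genes called under that scaling is not given here, so this count has no background to be read against. The signs of Slc3a2 (-0.04) and Slc7a1 (-0.05) turned, so the direction of these small changes rests on the scaling.

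Other features moved with genotype in the same cells. Gm42418, a transcript overlapping ribosomal RNA, took 3.59% and 3.52% of endothelial-like UMIs in WT and 6.47% and 7.03% in the knockout, and median UMIs per endothelial-like cell were 3282 and 3141 against 2814 and 2586.5. The choroid plexus transcript Ttr stood at 0.51 and 0.191 CPM in WT and 84.9 and 78.6 in the knockout, and Hbb-bs, a haemoglobin gene of red cells, at 232 and 199 against 44.8 and 36.9. The 8 microglia markers, all with counts in every library, summed to 104.5 and 107 CPM in WT and to 136 and 136 in the knockout. For Slc7a5 and Slc2a1 the call held without Gm42418 and in the cells called free of other cell types' markers. Such cells had no UMI of Acta2, Kcnj8, Aqp4, Mog, P2ry12, Ttr or Hbb-bs. Of the microglia markers only P2ry12 was thus excluded. The filter kept 1858 and 1966 endothelial-like cells in WT and 2714 and 3035 in the knockout. For the other genes the part of these features was not tested beyond the alternatives listed at the end.

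**Figure D4:**
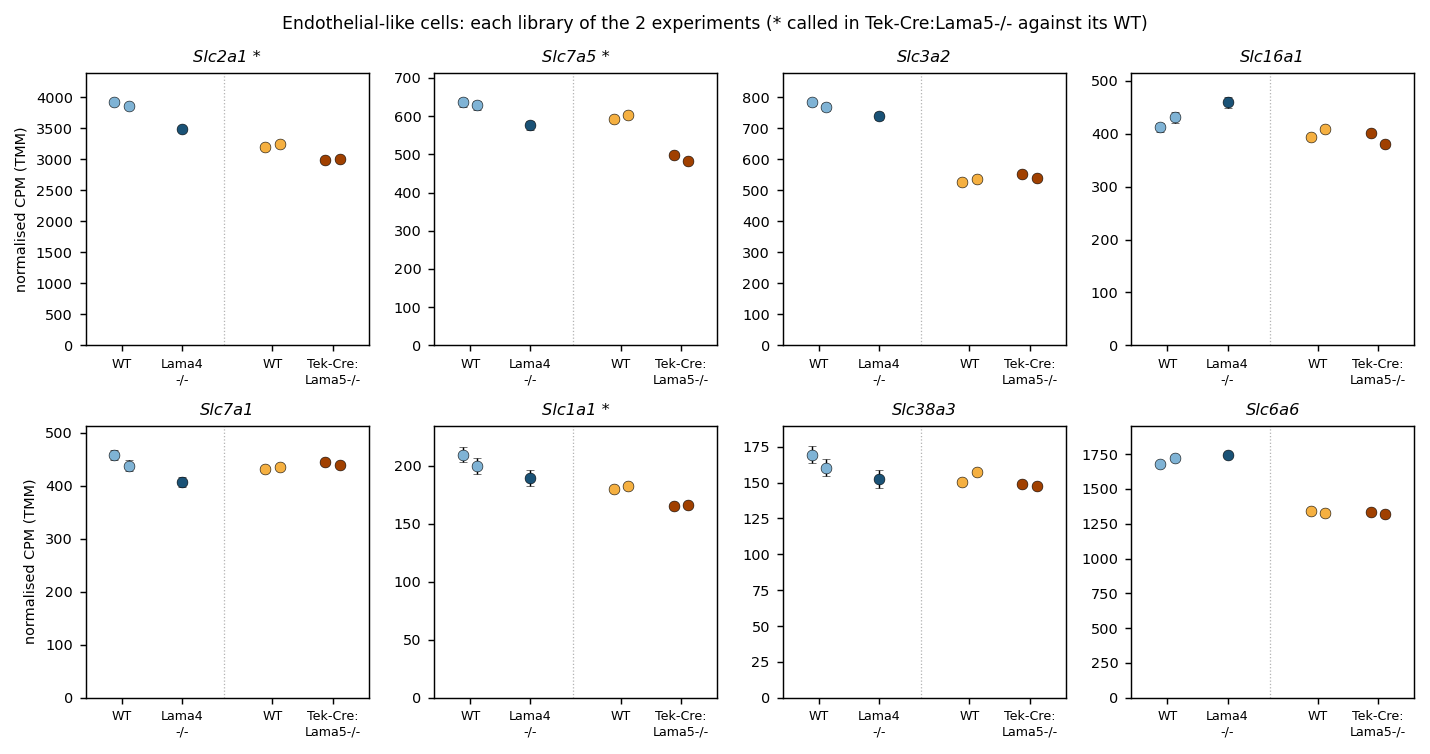
TMM-normalised CPM of each transporter in endothelial-like cells, 1 point per library, with the Lama4 experiment on the left (bars are exact Poisson 95% intervals, which cover counting error only) and the Lama5 experiment on the right. Slc7a5 is at 591 and 603 CPM in WT and at 498 and 483 in Tek-Cre:Lama5-/-, while Slc6a6 libraries of the Lama5 experiment all lie between 1323 and 1339.

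Slc7a5 was lower in all 3 zones with enough counts. In capillary cells it had 752 and 756 CPM in WT and 623 and 631 in the knockout, a log2 change of -0.27 (SE 0.02, edgeR adjusted p 2.33e-12). Venous cells had 689 and 671 CPM in WT and 552 and 535 in the knockout, a log2 change of -0.32 (SE 0.04, edgeR adjusted p 1.41e-06). In small-artery cells the values were 185 and 190 CPM in WT and 173 and 121 in the knockout, a log2 change of -0.35 (SE 0.08, edgeR adjusted p 0.00722). This last call rested on 1 library, since without knockout replicate 2 the change was -0.12 with an edgeR adjusted p of 0.482, and DESeq2 did not make it (adjusted p 0.52). The share of cells in each zone hardly differed, with capillary cells at 67.8% of endothelial-like cells in both WT libraries and 67.6% and 68.2% in the knockout.

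In capillary cells 3 of 8 genes were called, all lower, where 13.7% of 12152 genes were called and 5.97% as lower. Beside Slc7a5, Slc2a1 had 2911 and 2948 CPM in WT and 2684 and 2700 in the knockout (log2 change -0.12, SE 0.02, edgeR adjusted p 1.35e-06). Slc1a1 had 248 and 255 CPM in WT and 233 and 238 in the knockout (log2 change -0.10, SE 0.03, edgeR adjusted p 0.0261), and 7 of 15 alternatives did not keep that call. With the border sub-clusters left out, an alternative chosen after seeing the data, Slc1a1 was not called (log2 change -0.06, edgeR adjusted p 0.31) and Slc16a1 was, lower by a log2 change of -0.11 (edgeR adjusted p 0.003).

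Small-artery cells also had 3 of 8 genes called, 2 lower and 1 higher, against 5.51% of 10814 genes, 1.99% lower and 3.52% higher. Slc1a1 had 88.2 and 78.0 CPM in WT and 69.2 and 61.3 in the knockout, a log2 change of -0.35 (SE 0.09, edgeR adjusted p 0.0131). Slc3a2 was the one that rose, from 275 and 275 CPM in WT to 339 and 302 in the knockout (log2 change 0.22, SE 0.05, edgeR adjusted p 0.00813). In these arteries the 2 subunits of the LAT1 complex thus had changes of opposite sign. None of the 3 was called in cells free of other cell types' markers, where the log2 changes were -0.31 for Slc7a5, -0.30 for Slc1a1 and 0.16 for Slc3a2. Neither Slc1a1 nor Slc3a2 held when each library was left out in turn. Slc1a1 missed the threshold without WT replicate 1 (adjusted p 0.245) or knockout replicate 2 (0.17), and also with 1 carrier gene kept in the clustering (0.0544), and Slc3a2 missed it without WT replicate 2 (0.0501) or knockout replicate 1 (0.263).

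In venous cells Slc7a5 was the 1 gene of 8 called, lower there, with 7.64% of 10638 genes called and 2.74% as lower. Slc1a1 there had 108 and 104 CPM in WT and 107 and 104 in the knockout, with no separation. Slc38a3 had 173 and 188 CPM in WT and 160 and 160 in the knockout (log2 change -0.17, SE 0.06, edgeR adjusted p 0.0752). With 1 carrier gene kept in the clustering 3 genes were called lower in venous cells, Slc38a3 (adjusted p 0.0292) and Slc2a1 (0.0463) beside Slc7a5. In large-artery cells, 59 to 63 per library, 4 of 8 genes could be tested and none was called by edgeR or DESeq2, where edgeR called 0.259% of 3856 genes. Slc2a1 was the one with an unadjusted p under 0.05: it had 2449 and 2812 CPM in WT and 2071 and 2027 in the knockout, a log2 change of -0.37 (SE 0.10, edgeR adjusted p 0.289).

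Whether the knockout effect differed between zones was tested by an interaction over the 4 zones within the same libraries. None of the 8 genes passed the edgeR threshold, where 0.610% of 11812 genes did, and 3 had an unadjusted p under 0.05. Slc3a2 came nearest (adjusted p 0.0779), its change in small-artery cells being 0.24 above that in capillary cells, and it passed with 1 carrier gene kept in the clustering (adjusted p 0.0249) but not with zones from marker sums (0.193) or with border sub-clusters left out (0.231). The higher or lower calls of single zones do not by themselves show that zones differ.

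**Figure D5:**
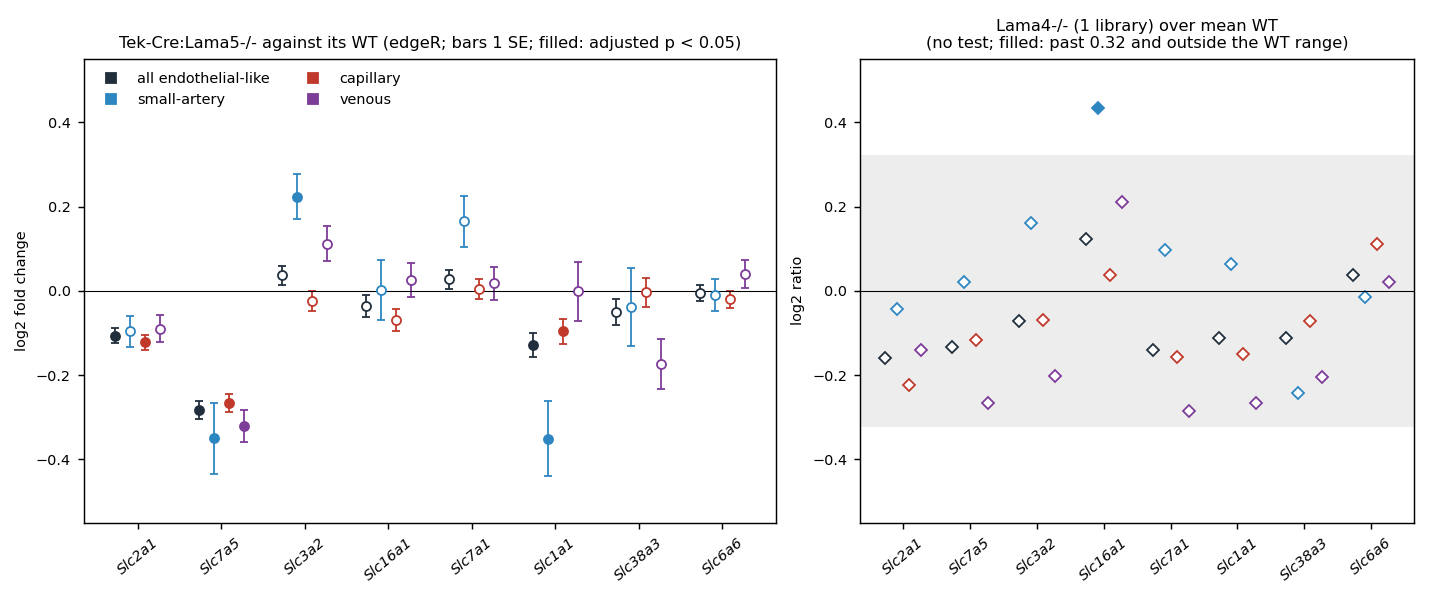
Left, log2 fold change of each transporter in Tek-Cre:Lama5-/- against its WT with 1 SE, for all endothelial-like cells and 3 zones, filled where the edgeR adjusted p is under 0.05. Right, log2 ratio of the single Lama4-/- library to the mean of its WT, filled where it passes 0.32 outside the WT range; Slc7a5 is below 0 in each set of cells on the left, and Slc16a1 in small-artery cells is the 1 filled point on the right.

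Outside the endothelium, 3 classes had members that changed in Tek-Cre:Lama5-/-, all of them higher. In microglia-like cells 2 of 6 tested genes were called, where 14.3% of 9605 genes were called and 8.88% as higher. Slc6a6 had 228 and 215 CPM in WT and 331 and 318 in the knockout (log2 change 0.55, SE 0.06, edgeR adjusted p 2.88e-09). Slc16a1 had 47.9 and 49.0 CPM in WT and 69.6 and 78.6 in the knockout (log2 change 0.61, SE 0.13, edgeR adjusted p 0.00037), and with DESeq2 its adjusted p was 0.0557. Both knockout libraries lay above both WT libraries for these genes, but also for Slc2a1, Slc7a5 and Slc3a2, which were not called. In endothelial-like cells of the same libraries neither Slc6a6 nor Slc16a1 was called. In microglia-like cells of the Lama4 WT, scaled within its own experiment, Slc16a1 had 15.8 and 15.7 CPM and Slc6a6 had 125 and 128. The WT groups thus stood further apart for both genes than knockout and WT did, and no test was made between them in these cells. Microglia-like cells made up 7.84% and 7.35% of cells in WT and 13.7% and 12.5% in the knockout.

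In astrocyte-like cells 1 of 7 tested genes was called, where 10.7% of 8952 genes were called and 6.94% as higher. Slc6a6 had 55.7 and 77.5 CPM in WT and 186 and 108 in the knockout (log2 change 1.13, SE 0.24, edgeR adjusted p 0.00242). The call rested on knockout replicate 1, without which the change was 0.68 (adjusted p 0.153), and with cells marked as doublets kept it was 0.28 (adjusted p 0.272), while DESeq2 gave an adjusted p of 0.0601. In the Lama4 WT, scaled within its own experiment, Slc6a6 had 104 and 62.6 CPM. Median UMIs per astrocyte-like cell were 2189 and 1989 in WT and 1204.5 and 1444 in the knockout. Slc3a2 was lower in both knockout libraries, at 319 and 326 CPM against 452 and 438 in WT, and missed the threshold (log2 change -0.46, SE 0.15, edgeR adjusted p 0.0515), which it passed with 1 carrier gene kept in the clustering (adjusted p 0.0478). In smooth muscle-like cells Slc3a2 had 153 and 173 CPM in WT and 217 and 207 in the knockout (log2 change 0.38, SE 0.08, edgeR adjusted p 0.00429), the 1 gene of 6 called, where 5.69% of 9609 genes were called and 4.4% as higher. Its call was lost without WT replicate 1 (0.29, edgeR adjusted p 0.108) and with DESeq2 (adjusted p 0.0683). In the Lama4 WT, scaled within its own experiment, Slc3a2 had 207 and 224 CPM there, so the WT groups stood about as far apart as knockout and WT.

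No member was called in oligodendrocyte-like (8 tested), neuroblast-like (6), pericyte-like (2) or perivascular macrophage-like cells (3), by edgeR or by DESeq2, and none there had an unadjusted p under 0.05. The shares of all genes called by edgeR were 11.9%, 0.124%, 0.303% and 1.67% in these classes. In oligodendrocyte-like cells Slc16a1 had 127 and 128 CPM in WT and 124 and 134 in the knockout, with an approximate 95% interval of -0.0819 to 0.125 on the log2 scale.

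The Lama4-/- comparison has 1 knockout library, so its values have no replicate check. A gene counted as past the fold when its log2 ratio to the mean of the 2 WT libraries was at least 0.32 in size and the knockout lay outside the WT range. In endothelial-like cells 0 of the 8 genes passed, against 10.7% of 11776 genes. Slc2a1 had 3914 and 3859 CPM in WT and 3480 in Lama4-/- (exact Poisson 95% interval 3452 to 3508), a log2 ratio of -0.16. Slc7a5 had 636 and 628 CPM in WT and 576 (565 to 588) in Lama4-/-, a log2 ratio of -0.13. Slc16a1 went the other way, from 412 and 431 CPM in WT to 459 (449 to 469), a log2 ratio of 0.12. In all, the Lama4-/- library lay below both WT libraries for 6 genes, adding Slc3a2 (784 and 768 against 739), Slc7a1 (459 and 438 against 407), Slc1a1 (210 and 200 against 189) and Slc38a3 (170 and 160 against 153). Slc16a1 and Slc6a6 (1680 and 1724 against 1746) lay above both WT libraries. Of all genes 37.3% lay below both WT libraries and 40% above. The intervals cover counting error only. Other features differed in these cells as well. Ttr stood at 150.5 and 97.4 CPM in WT and 1017 in Lama4-/-, and Hbb-bs at 119 and 88.1 against 27.8. Median UMIs per endothelial-like cell were 5879 and 5675 in WT and 4760.5 in Lama4-/-. The part of these features in the ratios was not tested.

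By zone, the Lama4-/- ratios of Slc7a5 were -0.12 in capillary, -0.27 in venous and 0.02 in small-artery cells. Venous cells had the lowest ratios for several carriers, with Slc7a1 at 404 and 435 CPM in WT and 344 in Lama4-/- (log2 ratio -0.28) and Slc1a1 at 113 and 99.1 in WT and 88.3 in Lama4-/- (log2 ratio -0.27). No member passed the fold in capillary or venous cells, where 15.7% and 21.9% of genes did. The 1 member past the fold was Slc16a1 in small-artery cells, with 83.2 and 81.6 CPM in WT and 111 (101 to 122) in Lama4-/-, a log2 ratio of 0.43 against 20.7% of genes past the fold there. Large-artery cells were too few in this experiment.

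Among other classes, 0 of 8 members were past the fold in microglia-like cells, against 18.8% of genes. Astrocyte-like cells had 5 of 8 past it, all lower, against 29.9% of genes, 16.8% lower, but the WT libraries themselves stood far apart there: Slc2a1 had 279 CPM in WT replicate 1, 134 in WT replicate 2 and 147 in Lama4-/-. Pericyte-like cells had 3 of 5 genes past the fold, smooth muscle-like cells 2 of 7 and perivascular macrophage-like cells 1 of 4, against 38.8%, 29.5% and 41.8% of genes, and apart from Slc2a1 in pericyte-like cells these values rested on 1 to 17 UMIs per library.

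The 2 WT groups show how far the same genes vary between experiments. In endothelial-like cells 6 of the 8 genes differed between them, 3 higher and 3 lower in the WT of the Lama5 experiment, where edgeR called 56.1% of all genes, 29.1% as higher and 27% as lower. Slc3a2 was lower there, at 564 and 576 CPM against 746 and 730 in the Lama4 WT, a log2 difference of -0.37 (SE 0.03, edgeR adjusted p 1.28e-08). Slc6a6 was lower as well (1430 and 1422 against 1598 and 1640 CPM; log2 difference -0.18, SE 0.03, edgeR adjusted p 1.76e-05). Slc7a5 was higher by 0.09 (SE 0.03, edgeR adjusted p 0.0143), which is smaller in size than its change of -0.28 in Tek-Cre:Lama5-/-, whereas Slc2a1 was lower by 0.10 between the WT groups, close to its knockout change of -0.11. In small-artery cells the WT groups differed more for Slc7a5, by 0.29 (SE 0.06, edgeR adjusted p 0.000262), close in size to its knockout change of -0.35 there. The WT difference exceeded the knockout change in size for Slc1a1 (-0.22 against -0.10) and Slc2a1 (-0.17 against -0.12) in capillary cells. So it did for Slc3a2 in small-artery cells (-0.29 against 0.22). It was smaller for Slc7a5 in capillary (-0.05 against -0.27) and venous cells (0.13 against -0.32), and for small-artery Slc1a1 (0.04 against -0.35). Experiment, pool and depth cannot be told apart in these differences, and each knockout was set only against its own WT.

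Other carriers of the barrier gave context in endothelial-like cells of Tek-Cre:Lama5-/-. Of 18 further amino acid carriers tested, 8 were called, 3 higher and 5 lower, with a median log2 change of -0.05 against 0.00 over all genes, of which 19.2% were called. Slc38a2, a neutral amino acid carrier known to be induced when amino acids are short, rose by 0.24 (SE 0.02, edgeR adjusted p 2.45e-11), while the glutamine carrier Slc38a5 fell by 0.13 (SE 0.03, edgeR adjusted p 0.000702) and the glutamate carrier Slc1a2 fell by 0.76 (SE 0.07, edgeR adjusted p 8.56e-11). Over library totals Slc38a2 had 958 and 923 CPM in this WT, 1058 and 1050 in the knockout, and 329 and 316 in the Lama4 WT. The WT groups thus stood further apart for Slc38a2 than knockout and WT did. Slc1a2 is known as an astrocyte gene: it had a median of 6432 CPM in astrocyte-like and 21.6 in endothelial-like cells. The 8 astrocyte markers summed to 217 and 220 CPM in endothelial-like cells of WT and to 186 and 200 in the knockout, and their part in this change was not tested. Of 10 sugar and monocarboxylate carriers and partners, 3 were called, 1 higher and 2 lower, against the same 19.2% of all genes. Slc16a9 fell by 0.28 (edgeR adjusted p 2.06e-05), Slc5a3, an inositol carrier, rose by 0.17 (edgeR adjusted p 0.03), and Slc16a4 was not called (0.09, edgeR adjusted p 0.0541). Basigin (Bsg), the chaperone that brings MCT1 to the membrane and the most abundant gene of that list, was also called, with a log2 change of -0.10 (SE 0.02, edgeR adjusted p 4.27e-05). Over library totals Bsg had 9304 and 9451 CPM in this WT, 8377 and 8207 in the knockout, and 14240 and 14440 in the Lama4 WT.

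Of 10 vitamin, creatine, nucleoside and choline carriers 2 were called, both lower, close to the 19.2% of all genes: the riboflavin carrier Slc52a2 (-0.19, edgeR adjusted p 0.0196) and the thiamine carrier Slc19a3 (-0.18, edgeR adjusted p 0.000622), while the choline carrier Slc44a1 was not (-0.06, edgeR adjusted p 0.323). Of 4 iron genes 1 was called, again beside 19.2% of all genes: the transferrin receptor Tfrc had 286 and 288 CPM over library totals in WT and 368 and 344 in the knockout, a rise of 0.39 (SE 0.03, edgeR adjusted p 1.07e-13). In the Lama4 WT Tfrc had 137 and 130 CPM over library totals, so the WT groups stood further apart than knockout and WT did. The same held for Bsg, Slc38a5, Slc5a3, Slc19a3 and Slc52a2 among the called genes named above. For Slc1a2 both gaps were about alike, and for Slc16a9 the WT groups stood closer than knockout and WT. The iron exporter Slc40a1 (-0.02, edgeR adjusted p 0.763) and Slc11a2 (0.02, edgeR adjusted p 0.921) were not called.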

How the data were processed

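Raw UMI counts per gene and cell were deposited by the authors, made with Cell Ranger 3.1.0 per the file headers and on build mm10 per the submitters' processing notes, which also name Seurat 3.1; annotation and cell-calling settings are not given in the sources used here. Cells with under 500 genes or over 15% mitochondrial UMIs and putative doublets (0.8% per 1000 cells) were removed. Cells were clustered (2000 variable genes, 30 components, Leiden resolution 1; carrier genes, Lama4, Lama5 and Gm42418 left out) and named from marker lists, so zones are rebuilt, not the authors'. Counts were summed per library and class, with at least 50 cells, and tested with edgeR 4.0.16 (filterByExpr, TMM, quasi-likelihood), with DESeq2 1.42.0 as an alternative; the edgeR step was first tested on simulated data. Libraries shared at most 22 barcodes. Named: all 8 members, and per other list the 3 most abundant and the 3 largest called changes at 20 CPM or more. One gene of the sugar and monocarboxylate list is not reported here; it was left out of that list's counts after they were seen. Members and lists were chosen with earlier results of these data known. Gene coordinates are from GENCODE M21, which held 99.9% of the gene identifiers.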

Additional observations from a re-analysis of the deposited data

Results flagged for a closer look

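In 10 sets of values of genes tested by edgeR, every Tek-Cre:Lama5-/- library lay outside its own WT range on one side and the Lama4-/- library outside its own on the other. Slc38a3 in microglia-like cells did so too, but had too few counts to be tested and is not among the 10. The difference between the experiments was not tested, and the Lama4-/- arm is 1 library. Many genes did the same. In endothelial-like cells 24.3% of genes did so and 2 of 8 members, in small-artery cells 17.2% and 2 of 8. In venous cells the values were 18.6% and 1 of 8, in astrocyte-like cells 21.8% and 2 of 7. Microglia-like cells had 23.4% of genes and 4 of 8 members, Slc38a3 included. No member did so in capillary (0 of 8, against 20.8% of genes) or smooth muscle-like cells (0 of 7, 18.6%). The same held for pericyte-like (0 of 5, 14.5%) and perivascular macrophage-like cells (0 of 4, 14.6%).

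In endothelial-like cells the log2 values in Tek-Cre:Lama5-/- and Lama4-/- were 0.0364 and -0.0706 for Slc3a2 and 0.0276 and -0.141 for Slc7a1, and the first sign of each pair turned with library totals in place of TMM. Slc3a2 in venous cells had 0.112 and -0.203. In small-artery cells Slc7a5 had -0.35 and 0.0217, and Slc1a1 -0.35 and 0.0625. The Lama4-/- values of both lay within counting error of WT, at 174 CPM (161.6 to 187.5) against 172 and 171 for Slc7a5 and at 94.2 CPM (85.0 to 104.1) against 92.5 and 87.9 for Slc1a1. Without knockout replicate 2 neither was called in Tek-Cre:Lama5-/- small-artery cells (edgeR adjusted p 0.482 and 0.17), nor was Slc1a1 without WT replicate 1 (0.245).

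In microglia-like cells Slc16a1 had 0.606 and -0.307, Slc2a1 0.0772 and -0.259, and Slc7a5 0.344 and -0.053. In astrocyte-like cells Slc6a6 had 1.13 and -0.973, and Slc3a2 -0.46 and 0.0403. The astrocyte-like call of Slc6a6 in Tek-Cre:Lama5-/- rested on knockout replicate 1, without which the change was 0.68 (edgeR adjusted p 0.153).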

How the results depend on the processing

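Of the counts of members called, past the fold or highest in capillaries, 145 alternative values stayed within 1.5 times the main count and 27 did not. With library totals in place of TMM the members called in Tek-Cre:Lama5-/- were 6 in endothelial-like, 7 in capillary and 3 in venous cells. With DESeq2 they were 1 in small-artery, 1 in microglia-like, 0 in astrocyte-like and 0 in smooth muscle-like cells. With doublets kept they were 3 in venous, 0 in astrocyte-like and 1 in oligodendrocyte-like cells. Without a filter on low counts they were 2 in astrocyte-like and 0 in smooth muscle-like cells. In cells free of other markers they were 0 in small-artery cells, and 2 between the WT groups. With finer sub-clusters they were 5 in small-artery and 2 in venous cells, and with zones from marker sums 2 in venous cells. Leaving out each library gave 1 to 3 in small-artery, 1 to 2 in venous, 0 to 1 in astrocyte-like and 0 to 1 in smooth muscle-like cells. With 1 carrier gene outside the 8 kept in the clustering, an alternative chosen after seeing the data, they were 3 in venous and 2 in astrocyte-like cells, 4 instead of 3 in capillary cells with Slc16a1 added (adjusted p 0.00535), and 1 gene instead of 0 passed the interaction test. Neuroblast-like cells gave no value under it. Leaving out border sub-clusters, also chosen after seeing the data, changed no count of members called, though in capillary cells Slc16a1 took the place of Slc1a1. The shares of all genes called under these alternatives are not given here, so these counts cannot be set against them. The cause of these shifts was not tested.

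Signs turned for Slc3a2 (-0.0428) and Slc7a1 (-0.0516) in endothelial-like cells with library totals, and for Slc6a6 with a stricter cell filter (0.0212) and in cells free of other markers (0.000253). Leaving out each library gave -0.0771 to 0.00212 for Slc16a1 and -0.0137 to 0.0027 for Slc6a6. None of these was called. The correlation of same-numbered deviations was -0.0162 over 13151 genes, which shows no pairing by replicate number but does not settle whether samples were processed in pairs. With a replicate block 3 members were called in venous cells. By the share of cells with a UMI at 2000 UMIs, 4 genes instead of 6 were highest in capillaries, with Slc16a1 and Slc7a1 highest in veins. Cells free of other markers were too few in Lama4-/- for that alternative. Too few counts left 6 members untested in pericyte-like, 5 in perivascular macrophage-like and 4 in large-artery cells.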
